A study of Scophthalmus maximus with 8 samples.

Results

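The comparison described here sets the climax of metamorphosis of the turbot (Scophthalmus maximus) against its phylotypic embryo. Members are all reproducible ATAC-seq peaks of these 2 stages, 47853 at 23dph (days post hatching) and 94714 at 3dpf (days post fertilization), together 142567 of the 246426 peaks of the series. ATAC-seq uses the Tn5 transposase to cut DNA that is not covered by nucleosomes, and a peak is a stretch with more cuts than its surroundings. Each stage had 2 biological replicates and 1 consensus list, which keeps the peaks found reproducibly in both. The 23dph samples were bodies from which the hindmost part, behind the cloaca, had been cut off. The 3dpf samples were whole animals freed of the chorion with pronase. Animals were collected until a sample reached a set number of cells, so a replicate may pool several. Cells were freed with collagenase for longer at 23dph than at 3dpf, per the study's methods. The labels attach to the 23dph samples a list whose name carries another day number. Stage, sampled body part and time of dissociation change together and cannot be told apart. The remaining lists, 57611 peaks at 15dph and 46248 peaks at 37dph, came from bodies trimmed like those at 23dph and were used only to place the members in time.

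Open stretches of chromatin are mostly promoters, where transcription starts, and enhancers, which bind transcription factors and act on promoters at a distance. At the phylotypic stage vertebrate embryos lay out the body axis, segments and organ primordia, and many regulatory regions of early patterning genes are in use. Flatfish metamorphosis is driven by thyroid hormone. By its climax an eye has moved towards the opposite side of the head, and the young fish, which swam upright, begins to lie on its blind side. The animals were measured as mixtures of cells, so fewer cells with an open region and less opening per cell cannot be told apart. Genes, promoters and sequence under the peaks were not analysed here, and regions are named by their position on the ASM1334776v1 assembly.

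Peaks of the stages were linked when they shared at least 1 bp. A 23dph peak without a linked 3dpf peak is called gained, a 3dpf peak without a linked 23dph peak is called lost, and all others are called kept. These words refer to peak calls: a site without a reproducible peak need not have been closed. Gained peaks numbered 8117, or 17.0% of the 23dph list (95% Wilson interval 16.6 to 17.3). Lost peaks numbered 55863, or 59.0% of the 3dpf list (58.7 to 59.3). Kept peaks numbered 39736 at 23dph and 38851 at 3dpf. The intervals cover counting error only, since no value per replicate was analysed here, and no test between the stages could be made. In covered length, gained peaks held 2.07 Mb of the 13.2 Mb of the 23dph list, and lost peaks held 17.1 Mb of the 30.2 Mb of the 3dpf list. The counts varied with the length and strictness of the lists. The number of gained peaks was 3958 with a global IDR of at most 0.01 (IDR, the irreproducible discovery rate, is the expected share of peaks that fail to replicate). It was 12480 when an overlap of 50% of both peaks was required. Because the 3dpf list is longer, its length by itself raises the lost share and lowers the gained share. With the 47853 strongest 3dpf peaks only, 18034 peaks (37.7%) were gained and 19082 (39.9%) lost.

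Most links were simple. Of the kept 23dph peaks, 39396 were linked to a single 3dpf peak and 340 to several, and of the kept 3dpf peaks 37661 were linked to a single 23dph peak and 1190 to several. The 3dpf peaks that held several 23dph peaks were wide, with a median width of 645.5 bp and a median fold enrichment over the local background of 7.44, as the authors' peak caller gave it. The 23dph peaks that held several 3dpf peaks had a median width of 529.5 bp. Broad embryonic stretches that were called as separate peaks at climax thus outnumbered separate embryonic peaks that were called as a single stretch at climax. A total of 37047 pairs were linked only to each other.

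The other stages placed the classes in time. Of the gained peaks, 51.4% (50.3 to 52.5) also had a peak at 15dph and 39.6% (38.6 to 40.7) at 37dph. For kept 23dph peaks these shares were 90.9% (90.6 to 91.2) and 76.1% (75.7 to 76.5). Over all 23dph peaks they were 84.2% and 69.9%. Among the gained peaks, 2344 (28.9%) were present at both other stages and 1828 (22.5%) at 15dph alone. Another 872 (10.7%) were present at 37dph alone and 3073 (37.9%) at neither. Of the kept 23dph peaks, 2649 (6.67%) were present at neither. Lost peaks, which lack a 23dph peak by definition, mostly had no peak at the other stages either. Of the 55863, 43413 (77.7%) had no peak at 15dph or at 37dph, and 7743 (13.9%) had one at 15dph alone. Another 2876 (5.15%) had one at both and 1831 (3.28%) at 37dph alone. A 15dph peak was thus found for 19.0% of lost peaks, beside 48.5% of all 3dpf peaks. For 37dph the shares were 8.43% and 36.3%. Of the kept 3dpf peaks, which have a 23dph peak by definition, 2566 (6.60%) had no peak at 15dph or at 37dph. Lost peaks also seen at 15dph alone had a median width of 306 bp at 3dpf, those seen at both other stages 218 bp and those at neither 272 bp. Kept 3dpf peaks seen at 15dph alone were about as wide, 308 bp, and those at both had 272 bp. These shares are given as a description, since each refers to the same 23dph or 3dpf list.

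Over whole lists linked by 1 bp, median width differed more between the stages than between the classes of a stage. The median width was 238 bp over all 23dph peaks and 274 bp over all 3dpf peaks. Gained peaks had a median width of 225 bp (interquartile range 177 to 306) and kept 23dph peaks 240 bp (193 to 331). Lost peaks had a median of 272 bp (210 to 368) and kept 3dpf peaks 278 bp (213 to 408.5). The difference between lost and kept medians, 6 bp, was small and its direction was not stable, since lost peaks were wider than kept ones by 24 bp at a global IDR of at most 0.01, by 38 bp with equal lists, by 12 bp with an overlap of 50% and by 7 bp with summits within 100 bp. The difference of gained minus kept medians, -15 bp, was -29 bp at the stricter IDR, -44 bp with equal lists, -5 bp with windows around summits and 9 bp with summits within 100 bp. Very wide peaks were more frequent among the kept ones. Peaks over 500 bp made up 3.20% of gained and 6.82% of kept 23dph peaks, and 8.89% of lost and 15.1% of kept 3dpf peaks.

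**Figure D1:**
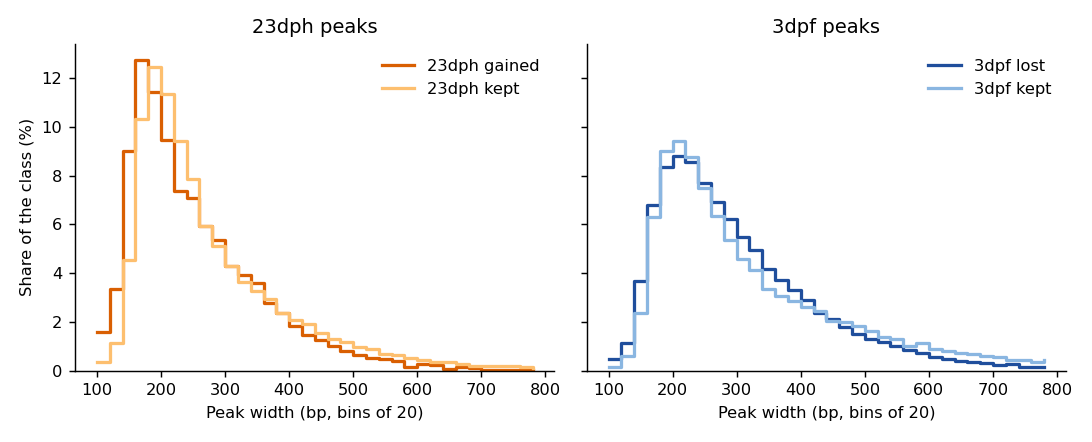
Distribution of peak width in bins of 20 bp for 23dph peaks (left, gained and kept) and 3dpf peaks (right, lost and kept), as a share of each class in percent, with the widest peaks beyond the end of the axis. The gained peaks sit at smaller widths than the kept 23dph peaks (medians 225 and 240 bp), while the lost and kept 3dpf curves cross, with medians of 272 and 278 bp.

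The share of lost peaks did not run evenly with width. When the 3dpf list was ranked by width and divided into 10 equal parts, 65.4% (64.5 to 66.4) of the narrowest part, with widths of 100 to 177 bp, were lost. The share was 57.1% (56.1 to 58.1) at 200 to 222 bp, 63.9% (62.9 to 64.9) at 309 to 354 bp and 44.8% (43.8 to 45.8) among the widest, at 521 to 1832 bp. Losses were therefore most frequent among the narrowest peaks, next most frequent at intermediate widths and least frequent among the widest. Gained peaks showed a similar profile, with its highest share again among the narrowest. Their share was 29.7% (28.5 to 31.0) among the narrowest 23dph peaks, 13.4% (12.5 to 14.4) at 216 to 238 bp, 17.6% (16.5 to 18.7) at 302 to 355 bp and 10.6% (9.71 to 11.5) among the widest.

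Strength separated the classes clearly, and at like strength a difference in width appeared. The median fold enrichment was 3.79 in gained and 4.90 in kept 23dph peaks, and 4.47 in lost and 6.12 in kept 3dpf peaks. When the 3dpf list was divided into 10 equal parts by fold enrichment, 84.6% (83.9 to 85.3) of the weakest and 12.4% (11.8 to 13.1) of the strongest part were lost. In the 23dph list the gained share was 41.2% (39.8 to 42.6) in the weakest part. In the strongest part it was 1 peak among 4786, or 0.0209% (0.00369 to 0.118). Lost peaks were wider than kept peaks in each of these 10 parts of the 3dpf list. The medians were 220 bp for lost and 187 bp for kept peaks in the weakest part, 317 and 253 bp in the seventh, and 390 and 358 bp in the strongest. The difference averaged 45.4 bp over the parts and lay between 52.25 and 68.65 bp under the alternatives other than the restriction to numbered chromosomes. Within the seventh part, 59.5% of the widest 25% of peaks and 32.1% of the narrowest 25% were lost. By the linking rule, a wider peak has more room to overlap a peak of the other list. In the 23dph list the medians of gained and kept peaks differed by no more than 1 bp in the 3 weakest parts, and gained peaks were wider by 11 to 21 bp in the next 6. Fold enrichment depends on the depth and background of each stage's own libraries, and whether depth takes part in these differences was not tested.

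**Figure D2:**
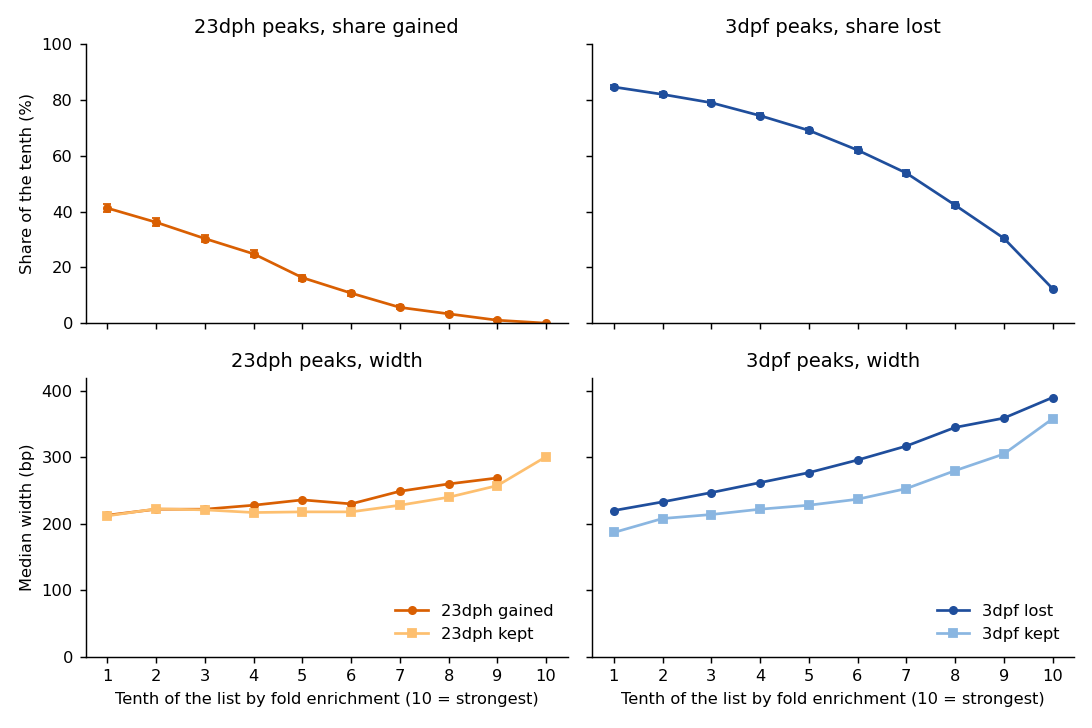
Share of 23dph peaks gained and of 3dpf peaks lost (top row, percent, with 95% Wilson intervals), and median width in bp of the changed and kept classes (bottom row), in 10 equal parts of each list ordered by fold enrichment from weakest to strongest. The lost share runs from 84.6% in the weakest to 12.4% in the strongest part, and the lost line lies above the kept line in each part at 3dpf. Medians of fewer than 20 peaks are not drawn.

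In pairs linked only to each other, the peak was usually narrower at climax. The median width was 239 bp at 23dph and 273 bp at 3dpf, and the median log2 ratio of 23dph width over 3dpf width was -0.13 (quartiles -0.34 and 0.02), a ratio of 0.911 and a difference of -24 bp. The 23dph peak was narrower in 26801 pairs, or 72.3% (71.9 to 72.8), and wider in 9914, or 26.8% (26.3 to 27.2). Both peaks had the same width in 332 pairs. At least 1.5-fold narrower 23dph peaks numbered 4842 (13.1%, 12.7 to 13.4), against 873 (2.36%, 2.21 to 2.52) that were at least 1.5-fold wider. In 18692 pairs (50.5%) the 23dph peak lay within the 3dpf peak, and in 4714 (12.7%) the 3dpf peak lay within the 23dph peak. The median distance between the summits was 11 bp over all pairs and 17 bp in those at least 1.5-fold narrower. Linking by overlap keeps summits close, so this distance describes linked peaks only.

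The median peak was narrower at climax in each set of pairs examined, and the size of the change varied. Pairs were divided into 10 equal parts by the mean of both widths and not by the width at 1 stage. Widths of kept peaks spread more at 3dpf (interquartile range 213 to 408.5 bp) than at 23dph (193 to 331 bp). No peak of either list was narrower than 100 bp, which limits how far narrow peaks can narrow. Part of the difference between these parts may therefore follow from the binning. The median log2 ratio was -0.06 in the narrowest part, with a median mean width of 166 bp, and -0.20 in the widest, with 570 bp. At least 1.5-fold narrower 23dph peaks made up 1.86% (1.47 to 2.35) of the narrowest part and 27.0% (25.6 to 28.4) of the widest, beside the 13.1% over all pairs. The share of narrower peaks also increased with strength. For this, pairs were divided into 10 parts by the mean rank of both peaks by −log10 p. The 23dph peak was narrower in 56.0% (54.4 to 57.6) of the weakest pairs and in 86.2% (85.1 to 87.3) of the strongest. The size of the change did not keep rising. The median log2 ratio was -0.05 in the weakest, -0.15 in the fourth and -0.15 in the strongest part. At least 1.5-fold narrower peaks made up 10.1%, 15.5% and 12.8% of these parts. In the 8999 pairs whose ranks differed by no more than 5 percentage points, the 23dph peak was narrower in 75.1% (74.2 to 76.0) and the median log2 ratio was -0.11. Pairs present at 15dph and 37dph had a median log2 ratio of -0.12, and the 2490 pairs absent at both had -0.19, with 21.8% (20.3 to 23.5) at least 1.5-fold narrower. Whether sequencing depth takes part in the narrowing was not tested.

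**Figure D3:**
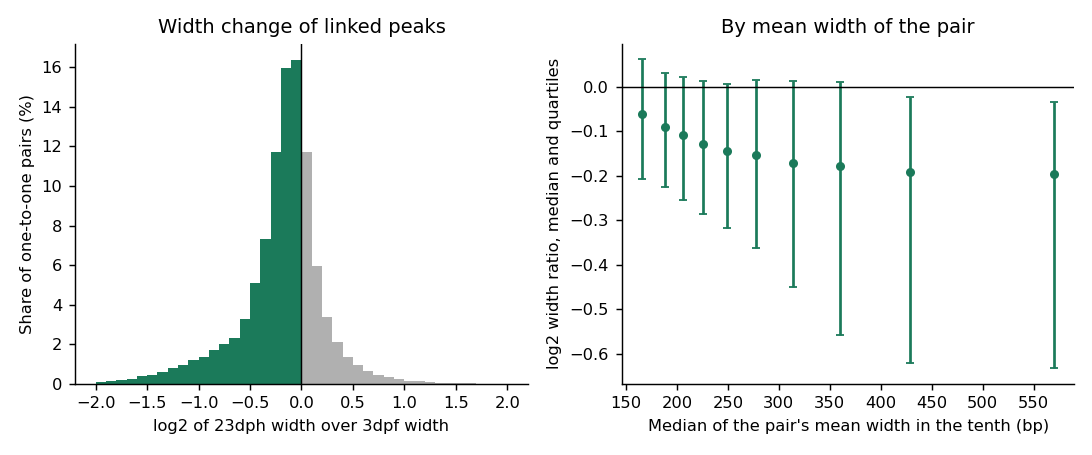
Left, distribution of the log2 ratio of 23dph width over 3dpf width in the 37047 pairs linked only to each other, in bins of 0.1, with narrower 23dph peaks in green and all others in grey. Right, median (points) and quartiles (bars) of the log2 ratio in 10 equal parts of the pairs against the median of the mean width in bp. The medians run from -0.06 in the narrowest to -0.20 in the widest part.

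Single pairs are given for the largest changes. They were taken from the 19097 pairs on numbered chromosomes whose peaks ranked in the upper 50% of both lists. The largest fall in width lay on chromosome 11, with a 23dph peak of 170 bp (1692947 to 1693116) at the edge of a 3dpf peak of 970 bp (1692172 to 1693141). The summits of this pair lay 700 bp apart, so the strongest point of the broad embryonic stretch was outside the 23dph peak. On chromosome 4 a 23dph peak of 183 bp (13518804 to 13518986) lay in a 3dpf peak of 996 bp (13518042 to 13519037), with summits 43 bp apart. On chromosome 7 a 23dph peak of 200 bp (18037512 to 18037711) lay in a 3dpf peak of 1085 bp (18037388 to 18038472), with summits 8 bp apart, so that here the shared summit kept its place and the flank was not called. The largest rise lay on chromosome 19, with 762 bp at 23dph (9482344 to 9483105) and 179 bp at 3dpf (9482350 to 9482528). The next were on chromosome 17, with 710 bp at 23dph (17348386 to 17349095) and 203 bp at 3dpf (17348384 to 17348586), and on chromosome 6, with 916 bp at 23dph (12946757 to 12947672) and 302 bp at 3dpf (12946702 to 12947003). The summits lay 388 bp apart on chromosome 19, 3 bp on chromosome 17 and 18 bp on chromosome 6. Each of these 6 regions also had a peak at 15dph, and the one on chromosome 7 was the only one without a peak at 37dph.

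The 5 strongest pairs were all narrower at climax, by less than the pairs above. The pair with the best combined rank lay on chromosome 11, with a 23dph peak of 285 bp (22780380 to 22780664, fold enrichment 13.1, rank 8 of its list) and a 3dpf peak of 345 bp (22780345 to 22780689, fold enrichment 17.6, rank 1), a log2 width ratio of -0.28. The next 4 lay on chromosomes 8, 15, 18 and 20. Their log2 width ratios were -0.15, -0.02, -0.12 and -0.11, and each had peaks at 15dph and 37dph as well.

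The strongest peak calls of the gained and lost classes are given by position. The strongest gained peak was found on chromosome 14 (11028343 to 11028570, fold enrichment 8.26), at rank 3809 of 47853. Next came those on chromosome 5 (8577957 to 8578470, fold enrichment 6.97), chromosome 11 (13064125 to 13064365, 6.81), chromosome 6 (2461670 to 2462065, 6.80) and chromosome 2 (3343827 to 3344061, 6.26). These 5 peaks were also present at 15dph and at 37dph, and 4 of them lay within 576 bp of another 23dph peak. The 3dpf list is longer, which by itself leaves fewer 23dph peaks without a link. The strongest lost peaks ranked far higher in their list. After the first, on chromosome 2 at rank 149 of 94714, they lay on chromosome 7 (3030451 to 3030853, fold enrichment 13.2, rank 183), chromosome 19 (389351 to 389805, 12.8, rank 371), chromosome 22 (1223357 to 1223669, 13.5, rank 455) and chromosome 13 (19382922 to 19383379, 11.2, rank 563). None of these lost peaks was called at 37dph, and those on chromosomes 7, 19 and 13 had a peak at 15dph. The widest lost peak spanned 1832 bp of chromosome 18 (11860240 to 11862071, fold enrichment 4.33). Outside the mitochondrial genome the widest gained peak spanned 1072 bp of chromosome 17 (16219129 to 16220200, fold enrichment 3.38). A wider gained peak, of 3485 bp and a fold enrichment of 1.92, lay on the mitochondrial genome, which carries no nucleosomes. The 3dpf list named no mitochondrial peak, the 15dph list 1 and the 37dph list 2.

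Spacing differed between the classes within each list. The gap from a gained peak to the nearest other 23dph peak had a median of 3404 bp (quartiles 1201.5 and 7176), against 1877 bp (371 and 5493) for kept 23dph peaks. The gap from a lost peak to the nearest other 3dpf peak had a median of 1251 bp (397 and 3099), against 848.5 bp (223 and 2696) for kept 3dpf peaks. Changed peaks thus stood more apart than kept ones at both stages. The difference of 1527 bp between gained and kept peaks was 214.5 bp when an overlap of 50% of both peaks was required, and 711 and 672 bp with links by summits and by windows around summits. The difference of 402.5 bp between lost and kept peaks was 1002 bp with equal lists. Another 23dph peak lay within 1000 bp of 22.1% of gained and 39.6% of kept peaks, and another 3dpf peak within 1000 bp of 44.1% of lost and 53.4% of kept peaks.

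Few changed peaks were near misses of a peak of the other stage. The median distance from a gained peak to the nearest 3dpf peak was 1778.5 bp, and 445 of the 8117 (5.48%) lay within 100 bp of one. The median distance from a lost peak to the nearest 23dph peak was 3905 bp, and 1800 of the 55863 (3.22%) lay within 100 bp of one. Distances beyond 10000 bp were found for 4.18% of gained and 23.2% of lost peaks. Part of the lost peaks thus lay far from any 23dph peak. No shares were computed for randomly placed sites, so the near and far shares have no baseline here. Among gained peaks, 95.8% had a 3dpf peak within 10000 bp and 33.2% within 1000 bp. The 3dpf list is longer than the 23dph list, which by itself brings 3dpf peaks closer.

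Lost peaks lay together along the chromosomes. The nearest neighbour of a lost peak was itself lost in 65.3% (64.9 to 65.7), and that of a kept 3dpf peak in 48.3% (47.8 to 48.8), beside the 59.0% lost over the whole list. The difference of 17.0 percentage points lay between 14.2 and 19.9 under the alternatives. It was also present at each strength: in the strongest of the 10 parts of the list, the neighbour was lost for 69.9% (67.2 to 72.4) of lost and 47.3% (46.2 to 48.4) of kept peaks, and in the weakest for 63.7% (62.7 to 64.8) and 48.0% (45.4 to 50.5). Around lost peaks the share was thus higher in the strongest than in the weakest part, while around kept peaks these parts were close. Peaks that are each other's nearest neighbour count from both sides. The intervals of neighbour shares in both lists treat peaks as independent, so they may be too narrow. The difference between lost and kept peaks persisted with distance. Neighbours over 5000 bp away were lost for 67.0% (65.9 to 68.1) of lost and 53.4% (51.9 to 54.9) of kept peaks.

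Gained peaks had a gained nearest neighbour in 23.0% (22.1 to 23.9) and kept 23dph peaks in 14.1% (13.7 to 14.4), beside 17.0% gained over the list. The shares differed at each range of gaps, most widely at the shortest. Among neighbours within 100 bp, the neighbour was gained for 44.8% (40.4 to 49.2) of 487 gained peaks and 6.11% (5.44 to 6.86) of 4434 kept peaks. By the linking rule, a wide 3dpf peak that overlaps several neighbouring 23dph peaks makes all of them kept. There were 1190 such 3dpf peaks, so the contrast at short gaps follows in part from the rule, and how far was not tested. For gaps over 100 and up to 1000 bp the shares were 21.5% (19.4 to 23.8) and 8.69% (8.19 to 9.23), and for gaps over 1000 and up to 5000 bp 21.3% (19.9 to 22.7) and 17.8% (17.2 to 18.5). Beyond 5000 bp the shares were 21.9% (20.4 to 23.4) and 18.4% (17.6 to 19.1). The difference over all gaps, 8.90 percentage points, was 5.40 at a global IDR of at most 0.01 and 4.70 with windows around summits.

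**Figure D4:**
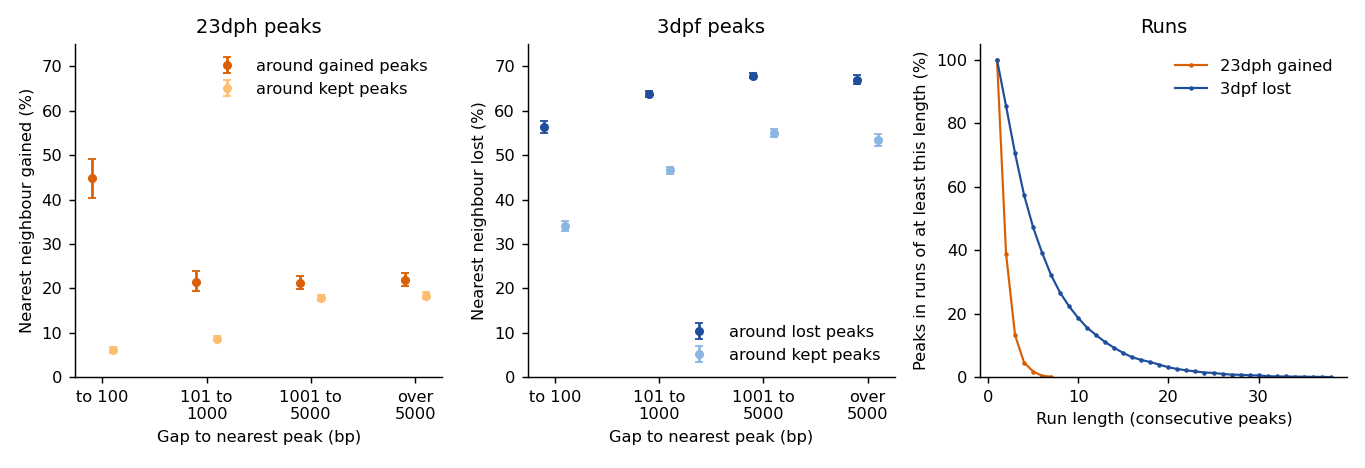
Left and middle, share in percent of nearest neighbours that were gained (23dph list) or lost (3dpf list), around changed and kept peaks, by gap in bp, with 95% Wilson intervals. Right, share of gained and of lost peaks that lay in runs of at least the given number of consecutive peaks of their class. Lost peaks had lost neighbours more often than kept peaks at every gap, and 18.7% of them lay in runs of 10 or more. The lists differ in length, so the right panel shows each class on its own.

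Runs of consecutive peaks are given as a further description. The 55863 lost peaks formed 19437 runs uninterrupted by a kept peak. Of the lost peaks, 14.5% stood singly, 47.3% lay in runs of 5 or more, 18.7% in the 760 runs of 10 or more, and 1755 in the 73 runs of 20 or more. Of the kept 3dpf peaks, 26.4% stood singly, 21.9% lay in runs of 5 or more and 2.34% in runs of 10 or more. Lost peaks made up 59.0% of the list, and a larger class forms longer runs by itself. Gained peaks formed 6317 runs, and the longest run held 7. Of the gained peaks, 61.1% stood singly. The longer 3dpf list and the higher share lost both lengthen runs, so the lengths were not compared between stages.

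The longest run of lost peaks lay on chromosome 13 from 1646692 to 1952940. It held 38 consecutive 3dpf peaks over 306 kb, with a median width of 359 bp and fold enrichments up to 7.90, and 18 of them ranked in the upper 50% of the 3dpf list. The same span held 3 peaks at 23dph, 11 at 15dph and 5 at 37dph, and 7 of the 38 were also present at 15dph and 1 at 37dph. The next run, on chromosome 1 from 8871631 to 9031211, held 37 lost peaks over 160 kb with a median gap of 953 bp, and its span held a single 23dph peak. The third, on chromosome 13 from 23683141 to 24000368, held 35 lost peaks over 317 kb, 3 peaks at 23dph and 2 at 37dph. Each of these 3 spans held at least 35 peaks in the embryo and at most 3 at climax. The spans were chosen as runs of 3dpf peaks without a linked 23dph peak, so this contrast follows in part from the choice. The median gap from a peak to its nearest neighbour was 2868 and 2392 bp in the runs on chromosome 13, against 1093 bp over the whole 3dpf list, so of these 3 runs only that on chromosome 1 was denser than the list. The longest runs of gained peaks lay on chromosome 10 (13103821 to 13151189, 7 peaks over 47.4 kb), chromosome 19 (4793401 to 4891025, 7 peaks over 97.6 kb) and chromosome 2 (23517209 to 23561379, 6 peaks over 44.2 kb). Their spans held 1, 16 and 3 peaks at 3dpf. None of the peaks in these runs ranked in the upper 50% of the 23dph list.

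In windows of 100 kb, losses were widespread but uneven. Among the 4531 windows with at least 10 3dpf peaks, the lost share had a median of 57.7% (quartiles 45.5 and 70.4) and ran from 6.67 to 100%. In 64 of these windows each 3dpf peak was lost, in 219 at least 90% were, and in 53 at most 20%. The most lost peaks, 33 of 39, were in the window from 3200001 to 3300000 on chromosome 5, followed by 32 of 34 in the window from 20600001 to 20700000 on the same chromosome and 31 of 35 in the window from 15400001 to 15500000 on chromosome 1. Those windows held 9, 5 and 5 peaks at 23dph. The most gained peaks, 10 of 25, were in the window from 12800001 to 12900000 on chromosome 15, beside 17.0% gained over the 23dph list. In that window 19 of 33 3dpf peaks were lost, a share near the window median of 57.7%. The next held 9 of 20 on chromosome 4 (13100001 to 13200000) and 9 of 18 on chromosome 17 (4800001 to 4900000). The share lost did not run evenly with the density of peaks. It was higher in the emptiest and the fullest windows than in those between. When 3dpf peaks were divided into 4 equal parts by the number of peaks in their window, the lost share was 62.5% in the emptiest windows, 55.8% and 57.1% in the next parts, and 60.6% in the fullest.

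The chromosomes differed by less than the parts by strength did. Over the 22 numbered chromosomes the lost share ran between 53.9% (52.3 to 55.5) on chromosome 19 and 64.2% (62.4 to 65.9) on chromosome 21, with a median of 58.8%. The share on chromosome 13, 63.8% (62.3 to 65.2), was within counting error of that on chromosome 21. On 6 chromosomes the interval lay wholly above the 59.0% of all 3dpf peaks and on another 6 wholly below. Chromosome 19 remained lowest under all 6 alternatives, and chromosome 21 highest in all but the overlap of 50%, where chromosome 13 was. The gained share ran between 15.1% (13.8 to 16.5) on chromosome 7 and 19.0% (17.0 to 21.1) on chromosome 22. Chromosome 22 was the only one whose interval lay above the 17.0% of all 23dph peaks, and 3 lay below. Across the 22 chromosomes, the lost and gained shares had a Spearman rho of 0.275 and a Pearson r of 0.270, given as a description of points that share the same libraries.

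**Figure D5:**
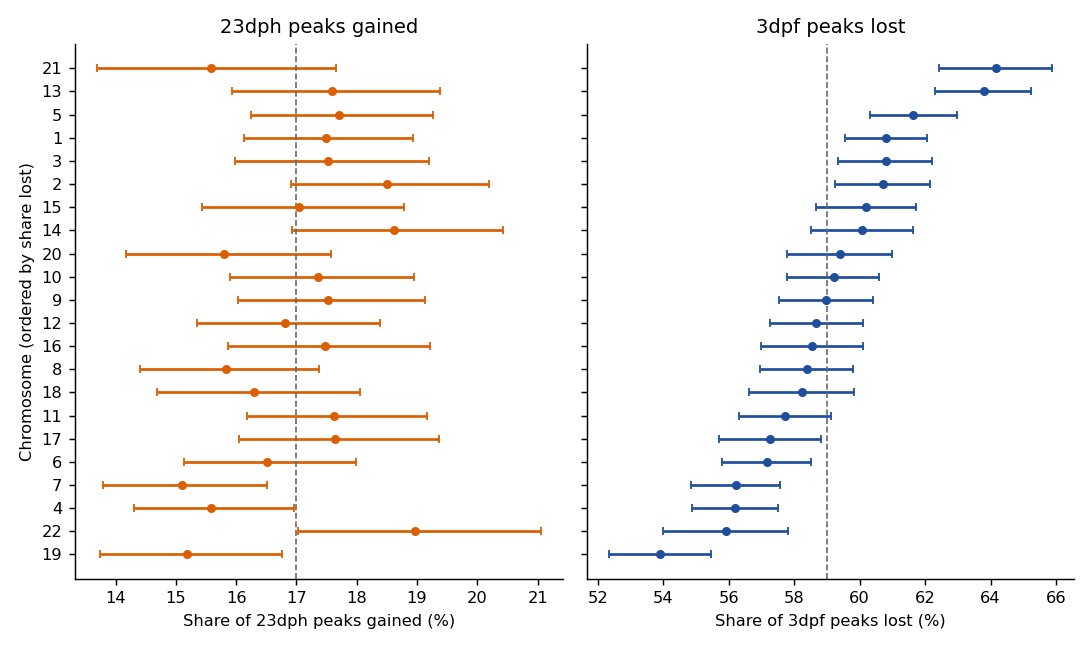
Share of 23dph peaks gained (left) and of 3dpf peaks lost (right) in percent on each of the 22 numbered chromosomes, ordered by the share lost, with 95% Wilson intervals and the share over the whole list as a dashed line. The axes do not start at 0. Chromosome 19 has the lowest lost share, 53.9%, and chromosome 21 the highest, 64.2%.

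Across the 22 chromosomes the lost share had a Spearman rho of -0.848 and a Pearson r of -0.879 with the density of 23dph peaks, and -0.153 and -0.214 with the density of 3dpf peaks. The lost share is itself counted from both lists, so these values are a description. Chromosome 21 had 80.3 peaks per Mb at 23dph, the third lowest density, and 186 per Mb at 3dpf, the highest. Chromosome 13 had the fewest at both stages, 72.3 per Mb at 23dph and 161 per Mb at 3dpf. It also held 2 of the 3 longest runs of lost peaks. Chromosome 19 had the highest density at 23dph, 103 per Mb, beside 185 per Mb at 3dpf. A share by strength was also formed, as if each peak had been lost as often as others of its strength over the whole list. It was 61.6% on chromosome 21, the highest, 58.9% on chromosome 19, and 57.0% on chromosome 4, the lowest. Across the 22 chromosomes its Spearman rho with the lost share was 0.736 and its Pearson r 0.717, given as a description. The narrowing of linked peaks was found on each chromosome. The median log2 width ratio was below 0 on 22 of 22 chromosomes and lay between -0.15 on chromosome 20 and -0.12 on chromosome 19.

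Along the chromosomes the exchange was not uniform. Chromosomes were divided into 10 parts of equal length. The lost share was 54.9% (54.0 to 55.9) in the sixth part and 64.2% (63.2 to 65.2) in the ninth, the lowest and highest values. The gained share was highest in the sixth part, 18.7% (17.7 to 19.7), and lowest in the last, 14.8% (13.8 to 15.9). The median log2 width ratio was -0.11 in the sixth part and -0.16 in the first and the last part. The sixth part thus had the lowest lost share, the highest gained share and the least narrowing of the 10 parts. The furthest peak of any stage served as the end of each chromosome, and where the centromeres lie was not analysed here.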

How the data were processed

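The authors aligned ATAC-seq reads with Bowtie2 to ASM1334776v1, placed read ends at the Tn5 cut site, kept short fragments, ran MACS2 on every replicate and merged both replicates into a consensus by IDR. The deposited lists give each peak's start, end and summit, a fold enrichment ratio over local background, −log10 p from the peak caller, and IDR values. The global IDR was at most 0.1 throughout, and read totals are not among these values, so depth was not corrected. The mapped read totals that the authors state for 23dph and 3dpf overlap. From them, peaks were linked, classified, and described by width (end minus start), gap, neighbour, run, 100 kb window and chromosome. Strength was ranked within a list only, by fold enrichment or −log10 p. Shares carry 95% Wilson intervals (counting error only). Peaks are not replicates, so no test was made. The code was checked on simulated lists. The members, measures, rules for named regions and alternatives (IDR, equal lists, overlap, summits, windows of 200 bp around summits, numbered chromosomes) were chosen with earlier results of these data known. The named regions were the 5 strongest gained, lost and linked peaks, the widest of each class, the 3 largest falls and rises in width among strong pairs, the 3 longest runs and the 3 fullest windows. The 15dph and 37dph lists served only for presence. Gene and promoter results were not made, since no annotation of this build was used. Calculations ran in Python 3.11.15 with numpy 2.4.6 and scipy 1.17.1, tables in pandas 2.3.3 and plots in matplotlib 3.10.9.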

Additional observations from a re-analysis of the deposited data

How the results depend on the processing

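The 14 results were recomputed under 6 alternatives, and neighbours also within 5 kb only. A value that stayed within the 95% interval of the reported one, or a count within 1.5 times, was taken as kept, which held for 33 of 86 recomputations, among them the numbered chromosomes and the spread of the lost share over chromosomes in each case. The 5 reversals all concern the difference in median width between changed and kept peaks without regard to strength. Causes were not tested, except that stricter linking rules and shorter lists leave fewer links by construction. No paired analysis was possible because both replicates of a stage share 1 list, and leaving out a replicate or running the gene alternative was not possible either. Read depth was not corrected for, and its part in counts and widths was not tested.

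A global IDR of at most 0.01 gave 3958 gained peaks (12.7%), a lost share of 58.6%, width differences to kept peaks of -29 bp for gained and 24 bp for lost peaks, 64.25 bp at like strength, and 75.2% narrower pairs. The gaps of gained and lost peaks exceeded those of kept ones by 1319 and 581.5 bp, and the shares of changed neighbours by 5.40 and 17.8 percentage points. Equal lists gave 18034 gained (37.7%) and 19082 lost peaks (39.9%), width differences of -44 bp for gained and 38 bp for lost peaks, 58.75 bp at like strength, a median log2 width ratio of -0.17, 79.2% narrower pairs, gap differences of 1254 and 1002 bp and 19.9 points for lost neighbours. An overlap of 50% of both peaks gave 12480 gained peaks (26.1%), a lost share of 62.7%, a width difference of 12 bp for lost peaks, 68.65 bp at like strength, a log2 ratio of -0.12, 71.2% narrower pairs, gap differences of 214.5 bp for gained and 347 bp for lost peaks, and 11.6 and 14.2 points for gained and lost neighbours. Summits within 100 bp gave shares of 23.6% gained and 61.4% lost, width differences of 9 bp for gained and 7 bp for lost peaks, 59.45 bp at like strength, a log2 ratio of -0.14, a gap difference of 711 bp for gained peaks, and 5.23 and 16.1 points for neighbours. Windows around summits gave 21.2% gained and 60.2% lost, width differences of -5 bp for gained and 0 bp for lost peaks, 52.25 bp at like strength, a log2 ratio of -0.14, a gap difference of 672 bp for gained peaks, and 4.70 and 15.7 points for neighbours. Neighbours within 5 kb gave 11.2 points for gained peaks.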
